A study of Homo sapiens with 3 samples.

Results

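The mRNA library from 293T cells given the guide RNA sgL1ASP #3 was compared with the library from cells given mock, and dCas9-VP64 was expressed in both. Genes entered the comparison when FPKM, the fragment count of a gene scaled by transcript length and library depth, was at least 1 in both libraries. This left 12461 of the 23284 gene names listed. Each difference is log2(FPKM + 0.1) with sgL1ASP #3 minus the same with mock, which understates the difference of genes with low FPKM. Each side is 1 library with no replicate, so p-values are not given, and a value described as higher or lower compares these libraries only.

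293T is a human embryonic kidney cell line. The dCas9-VP64 fusion joins a Cas9 that keeps DNA binding but has lost cleavage to a transcriptional activator. It was expressed transiently, and the share of cells that took up the plasmids is not given in the sources used here. Mock cells received a mock guide RNA. sgL1ASP #3 directs the fusion to the antisense promoter (ASP) in the 5′ end of LINE-1 (L1), a retrotransposon present in many copies across the human genome. A library with sgL1ASP #1, a guide to another site in the L1 5′ end, is given beside the values. In such bulk RNA, fewer cells expressing a gene and less RNA per cell cannot be told apart. It was set against the same mock library, so the 2 differences share any error of mock and are not independent.

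L1 has a sense promoter for its own mRNA and an antisense promoter that runs outward from the element. Transcripts from the antisense promoter can splice into the exons of neighbouring genes, or encode the small protein ORF0. Cells hold L1 down by DNA methylation, by repressive chromatin and by restriction factors that act on its RNA or its cDNA. FPKM per gene name does not separate L1-driven transcripts from transcripts of the gene's own promoter.

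A single read was worth 1.2033 times as much FPKM with sgL1ASP #3 as with mock, which gives the sgL1ASP #3 library 0.831 of the depth of mock. The depth estimated from the lowest FPKM values was 10400000 reads in mock, 8700000 with sgL1ASP #3 and 10300000 with sgL1ASP #1. In the same order it rests on 30, 38 and 61 genes, each taken to hold 1 read. The scaling between libraries is not known, so these may be scaled rather than raw read numbers. Below, a read number is an estimate from FPKM, transcript length and this depth, and a 95% counting interval covers the sampling of those reads only. Of the 12 markers chosen for HEK293T cells, 10 were tested, among them VIM (vimentin, FPKM 807 in mock and 862 with sgL1ASP #3) and KRT8 (keratin 8, FPKM 68.1 and 73.2). PAX2 and EYA1, both kidney development regulators, were under 1 in both libraries. The blood markers PTPRC, CD3E and HBB were listed at 0 in both, and so were DCN of fibroblasts and KRT14 of keratinocytes. The defining markers for these other cell types did not pass FPKM 1 in either library, except COL1A1 (FPKM 2.55 and 2.46) and APOA1 (FPKM 5.39 and 3.82).

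At the filter, the lowest value inside was FPKM 1.003 in mock for GABRR2 and 1.0007 with sgL1ASP #3 for TGFB3. The highest value outside was 0.9986 in mock for SCAND3 and 0.9997 with sgL1ASP #3 for ACRV1.

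The transcriptome with sgL1ASP #3 differed little from mock in most genes. The median difference of the 12461 genes was 0.002 on the log2 scale and the median absolute difference was 0.091. More than 1.5-fold higher with sgL1ASP #3 were 127 genes (1.02%), and 138 genes (1.11%) were more than 1.5-fold lower, which is 2.13% in all. The largest differences were concentrated in gene classes with few reads or with shared exons. Past 1.5-fold were 42 of 81 small RNA genes (51.9%), 8 of 34 readthrough genes (23.5%) and 55 of 781 other or unplaced genes (7.04%), against 160 of 11565 protein-coding genes (1.38%). A readthrough gene is a name given to transcripts that run from a gene into its downstream neighbour, so its exons are also those of its parents. Genes were counted in this class where both parts of the name are themselves listed, which leaves a few joined names, such as ZHX1-C8ORF76 (0.87), among the other genes.

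**Figure D1:**
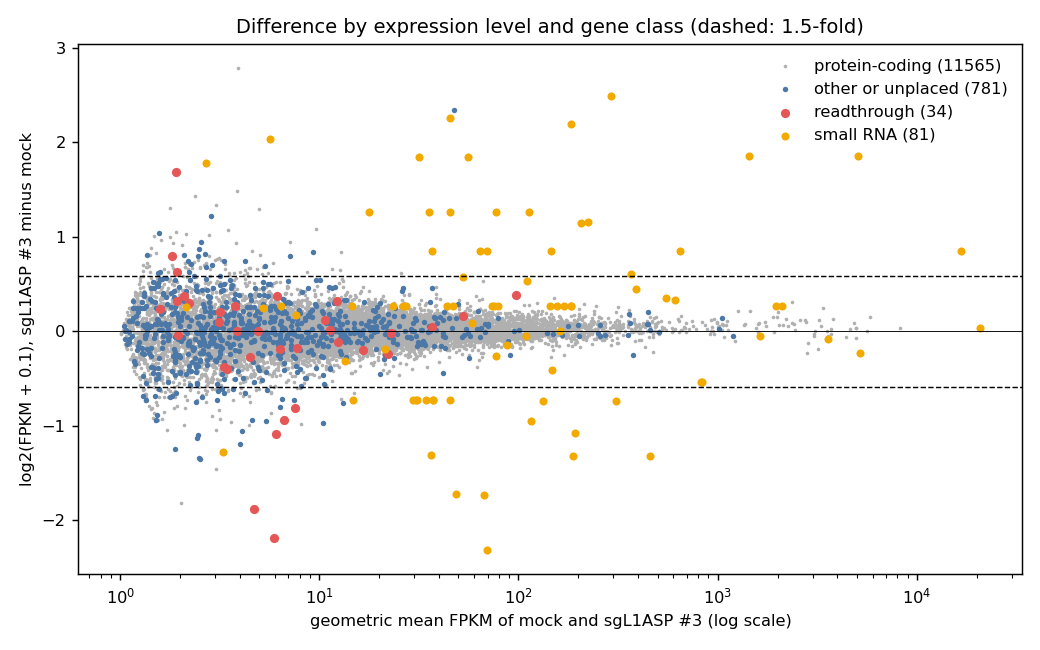
Each point is a gene with FPKM at least 1 in both libraries, with the geometric mean FPKM on a log axis and the log2(FPKM + 0.1) difference of sgL1ASP #3 from mock on the other. The grey cloud of 11565 protein-coding genes narrows toward high FPKM, while the 81 small RNA genes include points past 1.5-fold even above FPKM 100.

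Among protein-coding genes the share past 1.5-fold followed the number of reads. It was 7.29% below a geometric mean FPKM of 2, 4.38% from 2 to 5, 0.762% from 5 to 10 and 0.205% from 10 to 20. From FPKM 20 to 100 it was 1 of 3605 genes, and at 100 and above it was 0 of 778. By estimated reads, 16.8% of genes with under 20 reads were past 1.5-fold, and 2 of 5084 genes with at least 500 reads were. Of the 160 genes, 138 had a geometric mean FPKM under 5 and 123 had under 100 estimated reads. For the 79 higher genes the median difference from mock was 0.71, beside 0.32 for sgL1ASP #1. For the 81 lower genes it was -0.68, beside -0.35. More than 2-fold were 12 of the higher and 4 of the lower genes.

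The protein-coding genes with the largest differences upward included several that share exons with a readthrough gene. MUTED, now BLOC1S5, a subunit of the BLOC-1 complex of lysosome-related organelles, is on chromosome 6 of GRCh37 (chr6:8013800-8064629, minus strand). Its FPKM was 1.44 in mock, 5.98 with sgL1ASP #1 and 10.5 with sgL1ASP #3, a log2 difference of 2.78 for sgL1ASP #3. The readthrough gene MUTED-TXNDC5 had FPKM 12.8, 9.65 and 2.73 in the same order, and EEF1E1-MUTED had 9.20, 5.97 and 2.42. MUTED was thus highest, and both readthrough genes that contain its exons were lowest, in the sgL1ASP #3 library. The other parents were closer to mock. TXNDC5, a protein disulfide isomerase, differed by 0.15, and EEF1E1, a factor of the aminoacyl-tRNA synthetase complex, by 0.25.

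Opposite pairs occurred at some other loci, but not at all. ATP6V1G2-DDX39B differed by -0.93, while its parents were close to mock, ATP6V1G2 at 0.11 and DDX39B at 0.06. PLSCR3, a phospholipid scramblase of mitochondria on chromosome 17, had FPKM 3.17 in mock, 3.21 with sgL1ASP #1 and 7.91 with sgL1ASP #3. C17orf61-PLSCR3 had FPKM 5.77, 5.83 and 0.593, so both genes of this locus stood apart in the sgL1ASP #3 library and were near mock with sgL1ASP #1. BGLAP, which encodes the bone protein osteocalcin, had FPKM 2.27, 9.15 and 6.54, and PMF1-BGLAP had 8.87, 0.005 and 4.13. PMF1, a kinetochore protein gene and the other parent, had FPKM 85.4, 82.8 and 80.4.

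KLHL23, a Kelch-like gene on chromosome 2 (chr2:170550998-170633499), was the lowest of the protein-coding genes with FPKM at least 10 in both libraries. It had FPKM 18.8 in mock, 14.3 with sgL1ASP #1 and 11.9 with sgL1ASP #3, a log2 difference of -0.66 with a counting interval from -0.83 to -0.48. PHOSPHO2-KLHL23 went the other way, with FPKM 0.0028, 4.87 and 4.43. AS3MT, an arsenic methyltransferase, had FPKM 6.32, 2.06 and 3.13, and C10orf32-AS3MT had 0.175, 3.41 and 3.32. BLOC1S1-RDH5 had FPKM 10.1, 5.25 and 5.67, while RDH5, a retinol dehydrogenase of vision, had 2.73, 5.19 and 5.29. Among the 34 readthrough genes with FPKM at least 1 in both libraries, GPR75-ASB3 had the highest difference (1.68), with FPKM 1.03, 1.58 and 3.53, and its parent ASB3 had 6.52, 6.84 and 4.74. How Cuffdiff divided reads between overlapping genes was not tested. Of the 160 protein-coding genes past 1.5-fold, 19 (11.9%) share at least 20 exon bases on the same strand with another listed gene, against 6.39% of the protein-coding genes tested.

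Some other high values rested on few reads. S100A4, a calcium-binding protein, had FPKM 1.88 in mock, 2.54 with sgL1ASP #1 and 4.90 with sgL1ASP #3, which is about 6, 8 and 13 reads. CLPSL2, a colipase-like gene, had about 3, 8 and 8 reads. The counting intervals of both genes included 0. C6orf57 and AMACR had more reads. C6orf57, now SDHAF4, an assembly factor of succinate dehydrogenase, had FPKM 6.61, 10.6 and 14.1, a log2 difference of 1.08 with an interval from 0.65 to 1.51. AMACR, an enzyme of branched-chain fatty acid oxidation, had FPKM 2.37, 4.44 and 5.10, and C1QTNF3-AMACR had 0.581, 0.272 and 0.136. ACOT1, a cytosolic acyl-CoA thioesterase, had FPKM 1.30, 1.31 and 2.79, and its near-identical neighbour ACOT2 had 10.7, 10.1 and 9.77, so reads of the pair are uncertain.

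At the low end, EFCAB10, an EF-hand gene on chromosome 7, had the largest difference (-1.82), with FPKM 3.91 in mock, 2.52 with sgL1ASP #1 and 1.04 with sgL1ASP #3, about 22, 14 and 5 reads. TNNC1, the troponin C of heart and slow muscle, had FPKM 2.53, 1.38 and 1.17, from 13, 7 and 5 reads. SNX32, a sorting nexin, had FPKM 2.99, 1.996 and 1.45. SLC16A4, a monocarboxylate transporter family gene, had FPKM 5.07, 2.36 and 2.55, from 125, 57 and 52 reads. ATG10, an enzyme that conjugates autophagy proteins, had FPKM 2.19, 2.04 and 1.099. In TNNC1 the counting interval of the sgL1ASP #3 difference included 0, and in EFCAB10, SNX32, SLC16A4 and ATG10 it lay below 0.

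Past 1.5-fold with a mean of at least 100 estimated reads over mock and sgL1ASP #3 were 37 protein-coding genes. Of these, 30 share no exon and are part of no readthrough gene, 16 higher and 14 lower. They are genes of many functions, and they were picked for depth after their values were seen. A difference past 1.5-fold at this depth puts the counting interval off 0 by selection, so these intervals show width only. PRPH, which encodes the neuronal intermediate filament peripherin (chr12:49688930-49692469), had FPKM 11.4 in mock, 9.08 with sgL1ASP #1 and 5.71 with sgL1ASP #3, from about 189, 150 and 79 reads. Its log2 difference of -0.98 was the largest of the 30, with a counting interval from -1.36 to -0.60. SFT2D2, a membrane protein of vesicle traffic, had FPKM 7.78, 7.14 and 4.24 and a difference of -0.86 on about 878 reads in mock. SNUPN, the import adaptor of spliceosomal RNPs, had FPKM 16.5, 11.6 and 9.99, a difference of -0.72. Both sgL1ASP libraries were below mock in SNUPN, and in SFT2D2 the sgL1ASP #1 value was close to mock.

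Further lower genes of this set were NOVA1, a neuronal splicing regulator (FPKM 2.03, 0.572 and 1.21), and ULBP3, a ligand of the natural killer receptor NKG2D (FPKM 7.22, 5.67 and 4.56). DAAM1, a formin that builds actin filaments, had FPKM 4.98, 3.62 and 3.25. PTCD2, a mitochondrial RNA-processing protein, had 3.41, 3.46 and 2.11. In PTCD2 the sgL1ASP #3 library alone was low, and in NOVA1 the sgL1ASP #1 library was the lowest.

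Among the higher genes, EDA, the ligand ectodysplasin of hair and tooth development, had FPKM 4.54, 5.02 and 7.57, a difference of 0.73 with an interval from 0.49 to 0.97. HIVEP3, a zinc finger transcription factor, had FPKM 1.71, 2.09 and 2.87. PYGO1, a coactivator of Wnt target genes, had 3.53, 4.76 and 5.66. GLYCTK, the glycerate kinase, had 2.29, 2.23 and 3.93, so its high value was in the sgL1ASP #3 library alone. MAP2K6, an upstream kinase of p38, had 1.03, 2.15 and 1.65, and here sgL1ASP #1 was the highest.

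**Figure D2:**
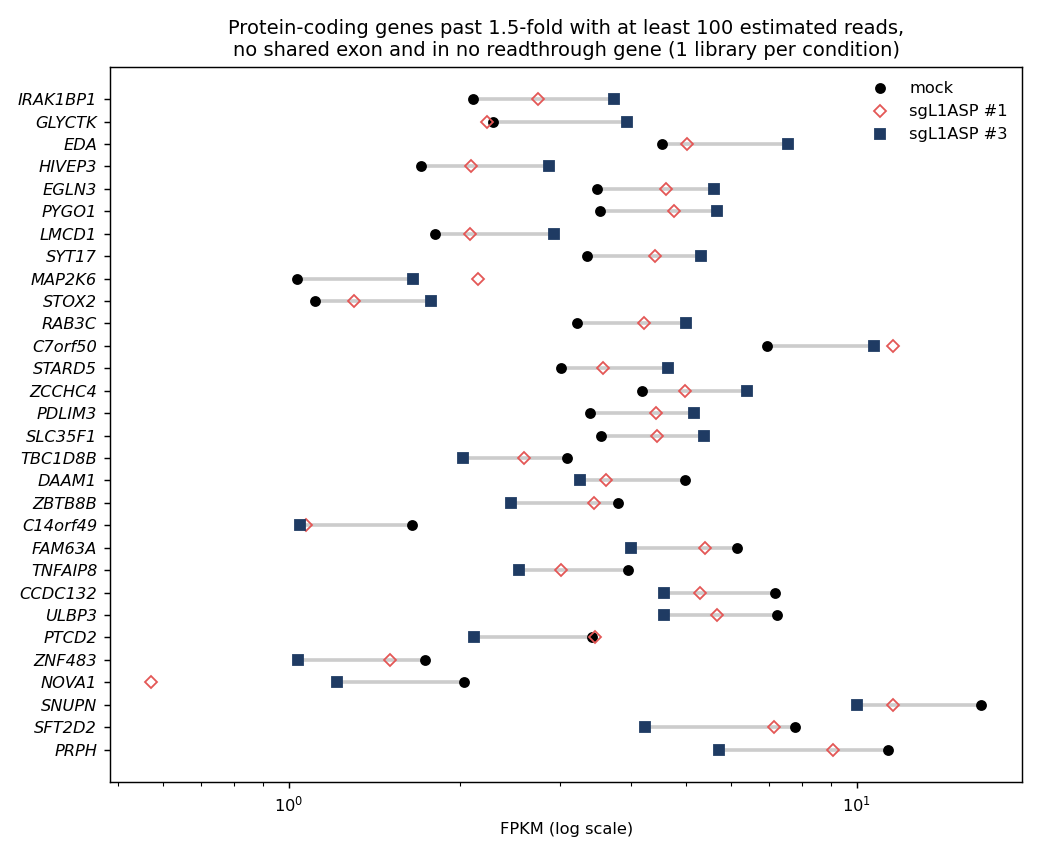
FPKM on a log axis in the mock, sgL1ASP #1 and sgL1ASP #3 libraries, with genes ordered by the difference of sgL1ASP #3 from mock. Shown are the 30 protein-coding genes past 1.5-fold with no shared exon. They have a mean of at least 100 estimated reads over mock and sgL1ASP #3. PRPH at the bottom goes from FPKM 11.4 to 5.71, and IRAK1BP1 at the top from 2.11 to 3.74.

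Genes expressed at FPKM 10 or more in both libraries numbered 6694 among the protein-coding genes, of which 3 were past 1.5-fold. KLHL23 was the lower gene. PTTG2, a single-exon relative of the securin gene PTTG1, had FPKM 10.1 in mock, 12.3 with sgL1ASP #1 and 15.9 with sgL1ASP #3, and PTTG1 had 90.8, 86.3 and 100.4, so reads of this pair are uncertain. MDP1, a magnesium-dependent phosphatase that shares exons with NEDD8-MDP1, had FPKM 20.7, 28.5 and 31.8. Next below the threshold on the high side were TEX30 (0.56), C16orf13, now METTL26 (0.53), and ANXA1, the phospholipid-binding annexin A1 (0.53). ANXA1 had FPKM 10.9, 10.8 and 15.9, high in the sgL1ASP #3 library alone. On the low side were KAT5, the TIP60 histone acetyltransferase (-0.46), GMDS, the first enzyme of GDP-fucose synthesis (-0.45), and C2orf74 (-0.44). KAT5 had FPKM 29.5, 25.04 and 21.4 on about 578, 485 and 349 reads. LSM6, a subunit of the LSm ring that binds U6 RNA and decaying mRNA, had 33.7, 34.5 and 25.5. The lowest value of both KAT5 and LSM6 was in the sgL1ASP #3 library, while for LSM6 the sgL1ASP #1 value was above mock.

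The 87 gene lists written for this comparison were then read by their medians, and 75 of them had at least 5 genes tested. In 54 of these lists no gene was past 1.5-fold. The median of 15 lists lay more than 0.05 from the median of all genes. Among these 75 lists, the highest median, the small RNA lists aside, was that of hypoxia-induced genes, followed by the glycolytic enzymes. Below 0 stood cadherins, NF-kB genes, collagens and laminins, microtubule-end genes and centromere proteins, by less than 0.1. Some of these depended on the processing. Under the alternatives, relative to all genes, cadherins ran from -0.1 to -0.01 and collagens and laminins from -0.079 to -0.013. Centromere proteins ran from -0.054 to -0.029, microtubule-end genes from -0.068 to -0.049 and NF-kB genes from -0.101 to -0.065.

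**Figure D3:**
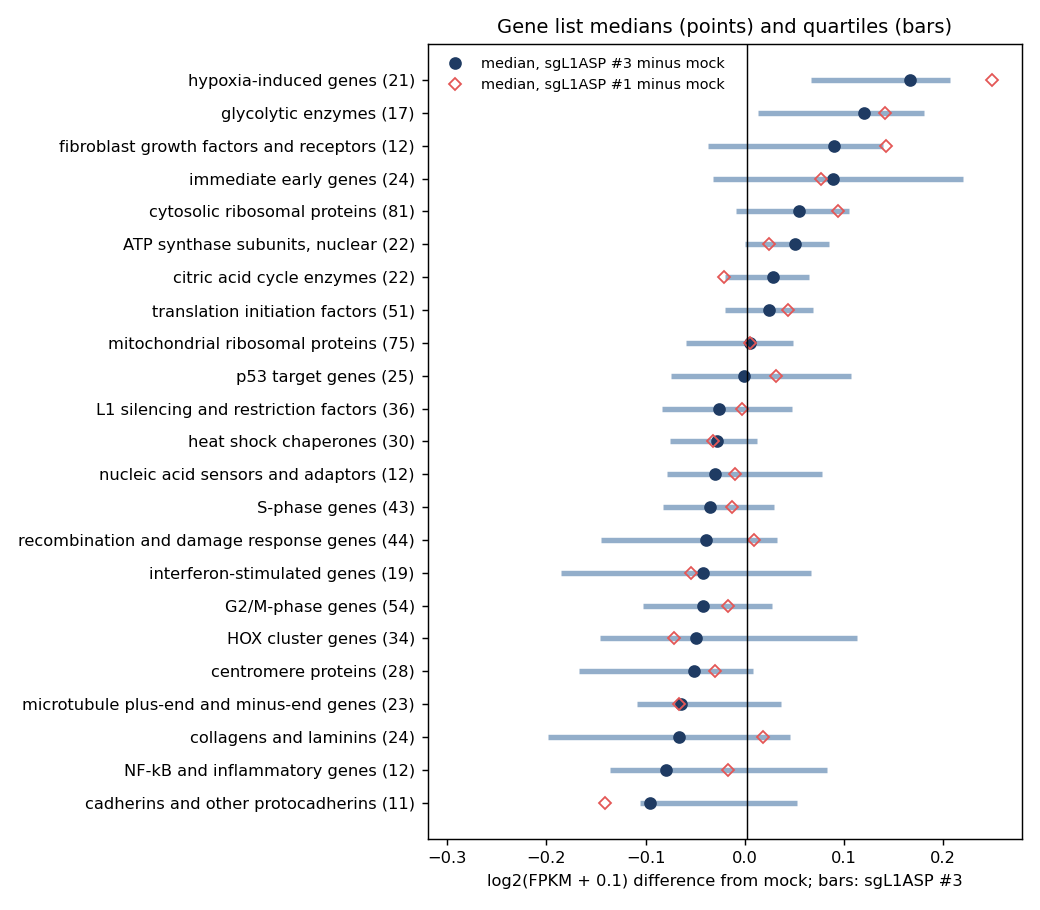
Medians of 23 gene lists as differences from mock in log2(FPKM + 0.1), for sgL1ASP #3 (filled circles, with bars from the lower to the upper quartile) and sgL1ASP #1 (open diamonds), with the number of genes tested in brackets. The vertical line is the median of all genes, and with sgL1ASP #3 the medians run from hypoxia-induced genes (0.17) and glycolytic enzymes (0.12) at the top to cadherins (-0.10) at the bottom.

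The glycolytic enzymes convert glucose to pyruvate and lactate. With sgL1ASP #3, 14 of 17 were above mock and none was past 1.5-fold, and the median difference was 0.12 with sgL1ASP #3 and 0.14 with sgL1ASP #1. The counting interval lay above 0 in 10 of the 17 genes and below 0 in none. Over all genes with estimated reads 8.22% were above and 6.84% below. These shares are not matched for depth. The median FPKM of the 17 enzymes in mock was 106, and intervals narrow as reads increase. Of the 778 protein-coding genes with a geometric mean FPKM of at least 100, 522 were above mock, with a median of 0.034. ALDOA, the aldolase of most tissues, had FPKM 1172 in mock, 1352 with sgL1ASP #1 and 1358 with sgL1ASP #3. PGK1, phosphoglycerate kinase, had FPKM 225, 277 and 269.9, a difference of 0.26 with an interval from 0.22 to 0.30. LDHA, which makes lactate, had 331, 398 and 387. In these 3 genes both sgL1ASP libraries were above mock. PGAM1, phosphoglycerate mutase, had the largest difference (0.38), with FPKM 23.3, 25.5 and 30.5. GAPDH, often used as a reference gene, had 2110, 2327 and 2311. The lowest members were LDHB, the other lactate dehydrogenase subunit (-0.03), and HK1, a hexokinase (FPKM 47.6, 47.5 and 47.5).

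The hypoxia-induced genes are targets of the HIF transcription factors. With sgL1ASP #3, 17 of 21 were above mock, with a median of 0.17 with sgL1ASP #3 and 0.25 with sgL1ASP #1. Of these 21 genes, 9 had an interval above 0 and 1 below, against 8.22% and 6.84% of all genes with estimated reads. These shares are not matched for depth. EGLN3, a prolyl hydroxylase that marks HIF for decay, was the only member past 1.5-fold, with FPKM 3.48 in mock, 4.601 with sgL1ASP #1 and 5.60 with sgL1ASP #3 and a difference of 0.67. BHLHE40, a transcriptional repressor, had FPKM 35.9, 45.2 and 45.5. BNIP3, a mitophagy receptor, had 44.7, 57.4 and 56.3. VEGFA, the angiogenic growth factor, had 95.6, 105 and 107. The glucose transporter gene SLC2A1 had 38.0, 47.4 and 43.3, so its highest value was with sgL1ASP #1. HIF1A itself, which is controlled mainly as a protein, had 23.4, 21.5 and 23.3. The lowest members were INSIG2, a regulator of sterol synthesis (FPKM 11.5, 11.6 and 9.64), and ANKRD37 (-0.05). CA9, a carbonic anhydrase and a common hypoxia marker, was listed at 0 in every library.

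**Figure D4:**
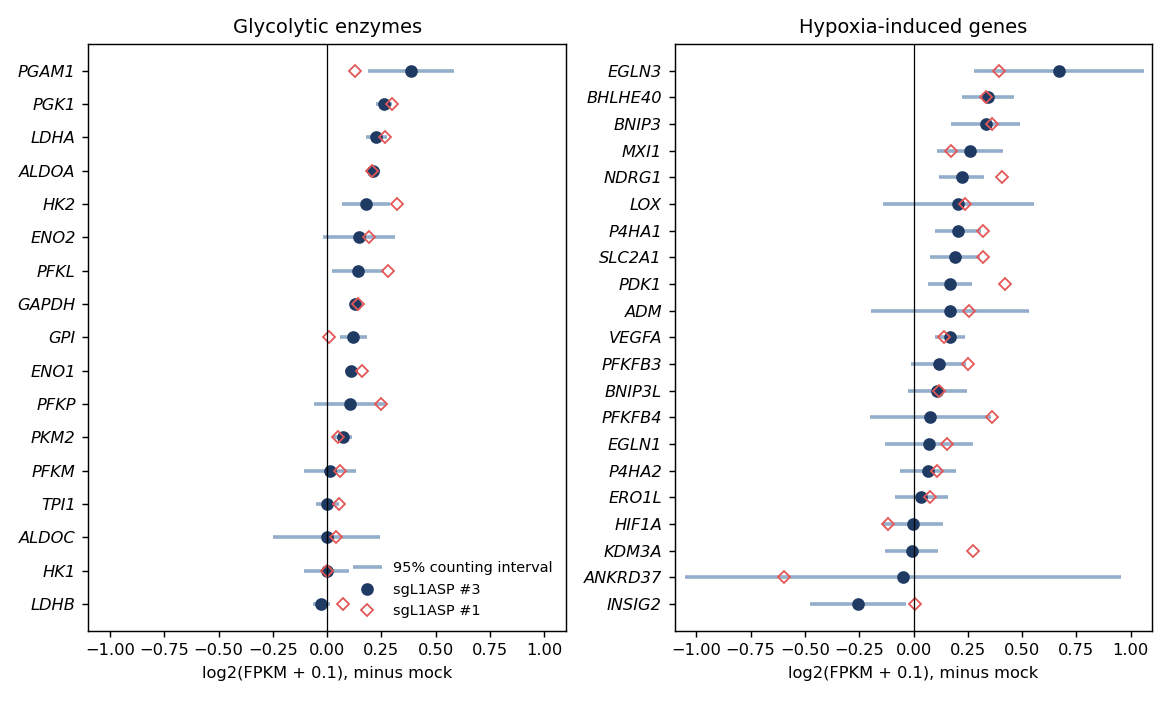
Differences from mock in log2(FPKM + 0.1) of 17 glycolytic enzymes and 21 hypoxia-induced genes, for sgL1ASP #3 (filled circles, with the 95% counting interval as a bar) and sgL1ASP #1 (open diamonds), with 1 library per condition. Of the glycolytic enzymes, 14 lie above 0 with sgL1ASP #3, from LDHB at -0.03 to PGAM1 at 0.38, and EGLN3 stands highest among the hypoxia-induced genes at 0.67.

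Library composition moved a little in the same data. By GC content of the transcript, in 5 equal bins, the median difference of protein-coding genes was -0.014 in the lowest bin and 0.037 in the highest. By transcript length it was 0.022 in the shortest bin and -0.022 in the longest. When each gene was set against the median of its own bin of GC content, of length or of FPKM, and under the other alternatives, the glycolytic median relative to all genes stayed from 0.101 to 0.119 and the hypoxia median from 0.136 to 0.166. By chromosome, the median lay between -0.027 on chromosome 13 and 0.028 on chromosome 21. The part of GC content and length in the remaining differences was not tested.

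Immediate early genes, which respond to growth factors and stress within minutes, had a median of 0.09 over 24 genes tested, and 16 were above mock. KLF2, a Krüppel-like factor, was past 1.5-fold (FPKM 1.06 in mock, 1.20 with sgL1ASP #1 and 1.75 with sgL1ASP #3, about 29 reads in mock). FOS had FPKM 1.56, 1.33 and 2.23. The lowest members were DUSP2, a phosphatase of MAP kinases (-0.52), and ZFP36, which destabilizes mRNA (-0.46). The intervals of these 4 genes included 0. Over all genes with estimated reads the interval lay above 0 in 8.22% and below 0 in 6.84%, not matched for depth. Over the list, it lay above 0 in 4 of 24 genes and below 0 in none. The 4 were BTG2, an antiproliferative gene (0.31), KLF10 (0.29), DUSP1, a MAP kinase phosphatase (0.20), and CYR61, a matricellular protein (0.13). JUN had FPKM 101, 105 and 104, and MYC had 69.4, 71.3 and 67.97.

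In the translation machinery, the 81 cytosolic ribosomal protein genes tested had a median of 0.06, with 57 above mock and none past 1.5-fold. Counting intervals lay above 0 in 37 of 80 and below 0 in 10, against 8.22% and 6.84% of all genes with estimated reads. Most ribosomal protein genes have far more reads, which narrows the interval. That of RPL37A, with about 236321 reads in mock, lay above 0 at a difference of 0.03. Among the 778 protein-coding genes with a geometric mean FPKM of at least 100, 522 were above mock, with a median of 0.034. RPS26 had the largest difference (0.52) at FPKM 5.02, 3.25 and 7.25, and RPL36A followed (0.40). Both are listed far below most ribosomal protein genes, and pseudogene copies make reads of such genes uncertain. Among abundant members, RPS2 had FPKM 2124, 2340 and 2629. At the low end stood RPS29 (FPKM 3058, 3740 and 2601) and RPL26 (FPKM 3389, 3662 and 2980), which were above mock with sgL1ASP #1 and below it with sgL1ASP #3. Mitochondrial ribosomal proteins, with 75 genes tested, had a median of 0.005, and the 22 nuclear ATP synthase genes had 0.05. Mitochondrially encoded genes are not among the names listed.

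Most cell cycle lists had medians slightly below mock. S-phase genes had a median of -0.035 over 43 genes, with 15 above mock, 28 below and none past 1.5-fold. Their interval lay above 0 in 2 and below 0 in 6. The medians were -0.029 for kinesin motors, -0.039 for recombination and damage response genes and -0.001 for p53 target genes. Cyclins and cyclin-dependent kinases had a median of 0.004 over 48 genes, with 25 above mock and 23 below. Their interval lay above 0 in 10 and below 0 in 1, against 8.22% and 6.84% of all genes with estimated reads. These shares are not matched for depth. CCNO, a cyclin of multiciliated cells, was past 1.5-fold with FPKM 2.33, 3.31 and 4.02. Replication licensing and fork genes had a median of -0.004 over 43 genes. The 54 G2/M-phase genes had a median of -0.042, with 19 above mock, 35 below and none past 1.5-fold. Their interval lay above 0 in 1 and below 0 in 9, against the same 8.22% and 6.84% of all genes. CDCA2, which recruits phosphatase 1 to chromatin, was the lowest (FPKM 6.18 in mock, 4.42 with sgL1ASP #1 and 4.69 with sgL1ASP #3), followed by CENPA, the centromeric histone H3 (-0.22). FAM64A, now PIMREG, was the highest (FPKM 13.2, 14.9 and 16.1), followed by HJURP, the chaperone of CENPA (0.15). The 28 centromere protein genes had a median of -0.05, with 20 below mock. CENPL, a kinetochore protein, was past 1.5-fold (FPKM 4.37, 3.33 and 2.78, a difference of -0.63 with an interval from -1.08 to -0.18), and SPC25 followed (-0.31). MIS18A, which loads CENPA, was at the other end (0.22), beside CENPN (0.19).

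The 23 microtubule-end genes tested had a median of -0.06, with 15 below mock and none past 1.5-fold. The lowest were APC, the tumour suppressor that binds plus ends (FPKM 6.63, 5.75 and 5.63), and SLAIN2 (-0.22). The highest were CLIP2 (0.47), a linker of membranes to microtubules, and MAPRE3 (FPKM 15.9, 20.01 and 19.8), an end-binding protein. CLASP1, MAPK12 and CHFR are the cell cycle genes the study followed by real-time RT-PCR, in cells given sgL1ASP #1. Here they differed from mock by 0.03, 0.17 and 0.05 with sgL1ASP #3, and by 0.05, 0.26 and 0.06 with sgL1ASP #1. The reference gene HPRT1 differed by 0.04 with sgL1ASP #3 and 0.05 with sgL1ASP #1. With sgL1ASP #3 the counting interval lay above 0 in MAPK12 and included 0 in CLASP1, CHFR and HPRT1. MAPK12 shares exons with HDAC10, and CHFR with GOLGA3 and ZNF605. How reads were divided between these genes was not tested.

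Genes that restrain L1 were close to mock. Of 39 listed silencing and restriction factors 36 were tested, with a median of -0.03, 16 above mock, 20 below and none past 1.5-fold. TREX1, a DNA exonuclease that limits L1 cDNA, was the lowest (FPKM 5.46 in mock, 5.88 with sgL1ASP #1 and 4.70 with sgL1ASP #3), followed by ZNF765 (-0.18). ZC3HAV1, the zinc finger antiviral protein, was the highest (FPKM 8.42, 9.53 and 9.56), followed by TEX19 (0.17). The APOBEC3 cytidine deaminases, which restrict retroelements, had 3 of 7 members tested. APOBEC3F had FPKM 1.76, 1.82 and 2.68, a difference of 0.58, which on the scale with the pseudocount of 0.1 is just under the 1.5-fold threshold. APOBEC3C had 12.5, 13.3 and 15.8, and APOBEC3B had 5.59, 5.08 and 4.05. The 2 higher members had intervals above 0, and that of APOBEC3B included 0.

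Interferon-stimulated genes, which respond to cytosolic nucleic acids among other signals, had 19 of 51 members tested, a median of -0.04 and none past 1.5-fold. ISG15, a ubiquitin-like protein, had FPKM 15.4 in mock, 16.8 with sgL1ASP #1 and 20.8 with sgL1ASP #3, and IFITM2, which blocks viral entry, had 41.8, 43.96 and 50.5. IFI6 had 7.12, 4.57 and 5.11, and IRF9, a subunit of the ISGF3 factor, had 7.25, 6.03 and 5.76. The list thus held members on either side of mock, 9 above and 10 below. Over all genes with estimated reads the counting interval lay above 0 in 8.22% and below 0 in 6.84%, not matched for depth. Here it lay above 0 in 2 of the 19 and below 0 in 1, EIF2AK2. The intervals of ISG15, IFI6 and IRF9 thus included 0. Nucleic acid sensors and adaptors had a median of -0.03 over 12 genes, from TREX1 and EIF2AK2, the kinase PKR (-0.19), to TBK1 and TRAF3 (both 0.13). Among NF-kB and inflammatory genes 12 of 27 were tested, with a median of -0.08. TNFAIP8, an apoptosis regulator induced by TNF, was past 1.5-fold (FPKM 3.94, 3.01 and 2.54, with an interval from -0.90 to -0.33), and NFKBIE, an NF-kB inhibitor, followed (-0.23). TNFAIP3 (0.25) and RELB (0.22) were the highest.

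Signalling, adhesion and patterning lists had medians on either side of mock. Integrins had 0.008, Notch pathway genes 0.02, Wnt ligands and receptors 0.03, and ephrins, semaphorins and plexins 0.04. Of the cadherin list 11 of 40 were tested, with a median of -0.10 and 8 below mock. CDH23, a cadherin of hair cell tip links, had FPKM 3.25, 2.24 and 2.53, and PCDH1 differed by -0.25. At the other end PCDH10 differed by 0.25 and PCDH20 by 0.20. Collagens and laminins had a median of -0.07 over 24 genes, from COL9A2 (-0.50) and COL9A3 (-0.40), chains of a cartilage collagen, to LAMA4 (0.11) and COL18A1 (FPKM 3.92, 6.20 and 5.06), whose fragment is endostatin. The 34 HOX genes tested had a median of -0.05, from HOXD8 (-0.38) and HOXB6 (-0.32) to HOXC5 (0.32) and HOXB3 (0.30). Fibroblast growth factor genes had a median of 0.09 over 12 genes, from SPRY2, an inhibitor of the pathway (-0.22), and FGF11 (-0.07) to FGF2 (0.26) and FGF17 (0.49). The counting intervals of all 12 included 0. Intervals lay above 0 in 0 and below 0 in 2 of the 34 HOX genes. For the 11 cadherins these counts were 2 and 2, and for the 24 collagens and laminins 2 and 1. Over all genes with estimated reads the shares were 8.22% above and 6.84% below, not matched for depth. The 57 clustered protocadherin genes listed were all under FPKM 1 in 1 library or both, so 0 were tested.

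Small RNA genes gave the widest differences. They are small nucleolar RNAs, which guide the modification of ribosomal and spliceosomal RNA, small Cajal body RNAs, microRNA hairpins and a few others, most of them encoded in introns of host genes and shorter than a usual sequencing fragment. Libraries made from polyadenylated mRNA are not built to capture them. Of the 81 tested, 23 were past 1.5-fold upward and 19 downward. Their FPKM ratios fell on a few values. After division by 1.2033, the ratio of sgL1ASP #3 to mock was within 0.5% of a ratio of whole numbers up to 6 in 58 of the 81 genes (71.6%) and in 34 of the 42 past 1.5-fold (81.0%), against 11.9% of protein-coding genes.

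The most frequent ratio was 1 to 1, in 18 genes, which appear 1.203-fold higher with sgL1ASP #3 with equal read numbers. It was followed by 1 read to 2 in 10 genes, 3 to 2 in 6 genes, 2 to 1 in 5 genes and 3 to 1 in 5 genes. A gene at 1 read to 2 stands at -0.73 and a gene at 3 to 2 at 0.85, so both lie past 1.5-fold. SNORA31, in an intron of TPT1 on chromosome 13 (chr13:45910449-45910582), had FPKM 155 in mock, 52.4 with sgL1ASP #1 and 31.1 with sgL1ASP #3, the ratio of 1 read to 6, while TPT1 had FPKM 3078, 3321 and 3010. SNORA65 on chromosome 9 had FPKM 20.6, 20.8 and 99.0, the ratio of 4 reads to 1. SNORA27 and SNORA5A were at 1 read to 4. RMRP, the RNA of the RNase MRP, had FPKM 2.77, 15.4 and 11.7, and ratios with numbers above 6 were not tried. The 20 noncoding host genes of small nucleolar RNAs, by contrast, had a median of -0.03 and none past 1.5-fold, from SNHG9 (-0.25) and SNHG10 (-0.18) to GAS5 (0.09) and ZNFX1-AS1 (0.19).

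**Figure D5:**
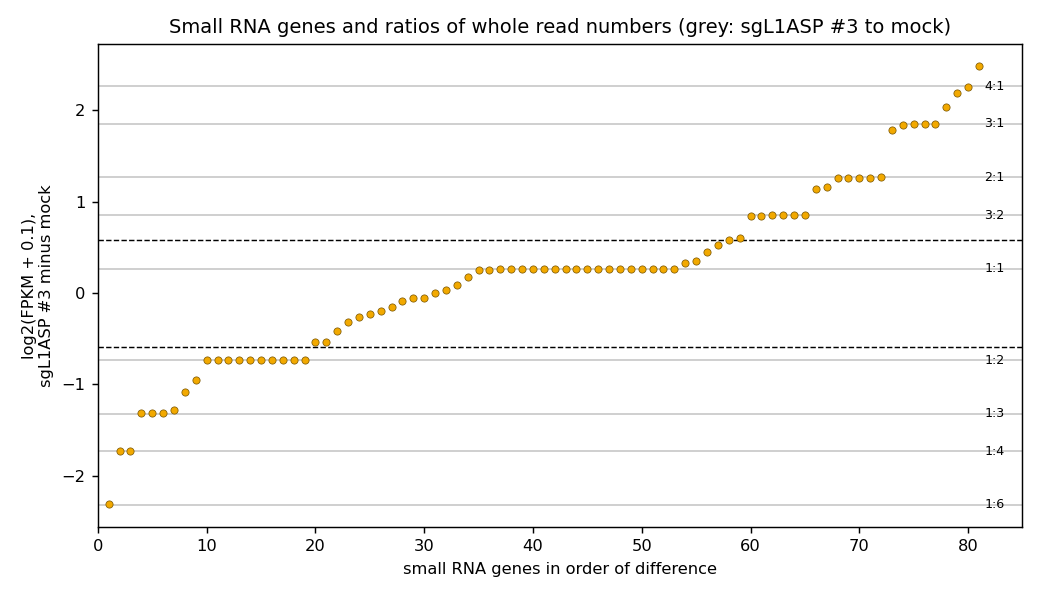
The 81 small RNA genes in order of their difference from mock in log2(FPKM + 0.1), with grey lines where the reads of sgL1ASP #3 and mock stand in the whole-number ratio written at the right, and dashed lines at 1.5-fold. The points form steps on the grey lines, the longest at 1 to 1 with 18 genes and the next at 1 to 2 with 10 genes.

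MIR600, MIR1248 and MIR25 were among the 5 small RNA genes with the largest differences upward. MIR25 lies in an intron of MCM7, a replication helicase gene, and had FPKM 756 in mock, 766 with sgL1ASP #1 and 2734 with sgL1ASP #3, the ratio of 3 reads to 1, while MCM7 had FPKM 248, 246 and 248. MIR1248, in EIF4A2, an RNA helicase of translation, had FPKM 86.1, 303 and 394, and EIF4A2 had 110, 122 and 119.9. MIR600 had FPKM 123, 525 and 689. These values count fragments over the hairpin gene in an mRNA library and do not measure the mature microRNA. The mature products are printed from RefSeq (GRCh38.p14) to show what the genes encode, 5′ to 3′, with the seed, bases 2 to 8, in capitals. The seeds of these printed products differ from each other.
hsa-miR-25-3p: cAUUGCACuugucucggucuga
hsa-miR-25-5p: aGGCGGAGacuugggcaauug
hsa-miR-1248: aCCUUCUUguauaagcacugugcuaaa
hsa-miR-600: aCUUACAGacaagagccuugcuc

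Of the remaining noncoding genes, PCNA-AS1, antisense to the replication clamp gene PCNA, had the largest difference (2.34), with FPKM 21.0 in mock, 44.8 with sgL1ASP #1 and 107 with sgL1ASP #3, while PCNA had FPKM 278, 271 and 261. The reads were counted by strand. ALOX15P1, a pseudogene, had FPKM 1.85, 3.53 and 4.44. ALOX15P1 had about 15 reads in mock and 30 with sgL1ASP #3, with a counting interval above 0. Lowest were LOC643339 (FPKM 4.12, 1.56 and 1.55), LOC100505681 (-1.34) and SPG20OS, now SPART-AS1 (-1.25). SPG20OS had about 11 reads in mock and 4 with sgL1ASP #3, and its counting interval included 0. Reads were not estimated for PCNA-AS1, LOC643339 and LOC100505681. HOXD-AS2, antisense within the HOXD cluster, had FPKM 6.10, 8.77 and 2.60, below mock with sgL1ASP #3 and above it with sgL1ASP #1. It had about 51, 72 and 18 reads, and its counting interval with sgL1ASP #3 lay below 0. No cause was tested for any of these differences.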

How the data were processed

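RNA-seq was carried out by the authors on 293T cells given mock, sgL1ASP #1 or sgL1ASP #3 beside dCas9-VP64, with TruSeq stranded mRNA libraries sequenced in single-end mode. Reads were mapped to hg19 with TopHat2 2.0.13, Bowtie2 2.2.3 and SAMtools 0.1.19, per the submitters' processing notes, and the deposited FPKM per gene were calculated by the authors with Cuffdiff (Cufflinks 2.2.1) in strand-specific mode. The gene annotation and the scaling between libraries are not given in the sources used here. FPKM were used as deposited, joined on gene name, with a pseudocount of 0.1, a filter of FPKM 1 in both libraries and a 1.5-fold threshold. With 1 library per condition no test was run. The members and lists were chosen with earlier results of these data known.

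Named genes are, by protein-coding, small RNA, readthrough and other class, the highest and lowest differences (10 each for protein-coding genes, also at FPKM 10 and above, and 5 each for the others), the 2 highest and 2 lowest members of each list described and any member past 1.5-fold, the parents of readthrough genes, CLASP1, MAPK12, CHFR and HPRT1. Some members of these sets are given by count only. The genes with a mean of at least 100 reads, partners of overlapping genes and members named for their function were chosen after their values were seen. Estimated reads come from FPKM, the depth and the transcript length less 200 bases, for transcripts over 300 bases, and reach 11867 of the genes tested. The 95% intervals treat these reads as Poisson counts. Positions and exon sharing are from GENCODE 44 on GRCh37 (hg19), on which 21213 of the 23284 names (91.1%) were placed, 1981 by an older name. Names followed RefSeq for GRCh38.p14. The counting rule, the list median and the depth ratio were tested on simulated data with reads drawn as Poisson counts. For the counting rule, changes larger than 1.5-fold were planted in genes with mean FPKM at least 5. Recovery of changes near 1.5-fold, or in genes with lower FPKM, was therefore not tested. Python 3.11.15, NumPy 2.4.6, pandas 2.3.3, matplotlib 3.10.9 and bedtools 2.31.1 were used. Alternatives to the pseudocount, filter, scaling and threshold were tried. Single members of the recombination and damage response list are not reported here.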

Additional observations from a re-analysis of the deposited data

How the results depend on the processing

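No paired analysis was possible because only 1 library was made for mock and for sgL1ASP #3. The counts of 127 higher and 138 lower genes moved with low values. They were 67 and 58 with a pseudocount of 1, 224 and 256 with mean FPKM at least 1, 1020 and 1206 with no filter, 31 and 28 with FPKM at least 5 in both libraries, 36 and 34 with at least 50 estimated reads in both, and 32 and 22 at 2-fold. Rescaling both libraries to 1 common FPKM sum shifted the median of all genes to -0.12, gave 129 higher and 349 lower genes in place of 127 and 138, and moved the median absolute difference from 0.091 to 0.142. That rescaling shifts every gene alike, and list medians are read relative to all genes. The number of lists over 0.05 from all genes was 15, and 13 to 17 under the alternatives. The relative depth of 0.831 did not move. Of the list medians under alternatives 868 stayed within 0.05, 21 shifted further and 3 reversed, all of microRNA genes, from 0.234 to -0.056 with mean FPKM at least 1, -0.168 with no filter and -0.001 when centred by GC bin. A reversal was counted only among the 15 lists over 0.05 from all genes. Centring by bins of GC, length and FPKM, and leaving out genes that share exons (103 higher and 116 lower), were chosen after seeing the data. Of the single-gene values 359 stayed within 1.5-fold of the reported one and 1 moved further. In genes with few reads, such as KLF2 with about 29 in mock, a counting interval can include 0 at a difference past 1.5-fold.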

Other observations

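Outside the filter, 310 genes had FPKM at least 1 in mock only, of which 183 were over 1.5-fold lower with sgL1ASP #3, and 268 had FPKM at least 1 with sgL1ASP #3 only, of which 162 were over 1.5-fold higher. Listed at 0 in mock and at FPKM 1 or more with sgL1ASP #3 were 45 genes, 33 of them small RNA genes, and the reverse held for 53 genes, 44 of them small RNA genes. The others include TNFRSF6B, the decoy receptor DcR3, which was listed at 0 in mock, 1.60 with sgL1ASP #1 and 2.56 with sgL1ASP #3, and CCL27, a skin chemokine, at 0, 1.22 and 1.44. Among readthrough genes CHKB-CPT1B and CKLF-CMTM1 were at FPKM 2.197 and 1.15 in mock and listed at 0 in both sgL1ASP libraries. Clustered histone genes, whose replication-dependent mRNAs lack a poly(A) tail, had 10 of 73 members tested, each with under 100 estimated reads in mock. HIST1H4E was past 1.5-fold with FPKM 2.25, 1.71 and 1.35, about 5 reads in mock. Genes named here were chosen after their values were seen.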
